A study of Mus musculus with 4 samples.

Results

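The genes of fatty acid synthesis and elongation were compared in total liver RNA of wild-type mice and of PEPCK-TAg mice, in which the promoter of the gene for phosphoenolpyruvate carboxykinase (Pck1) drives large T and small t of SV40. Members were chosen by gene symbol: every probe set whose single annotated symbol was Fasn, Acly, Acaca, Scd1, Elovl3, Elovl5, Elovl6, Me1, Thrsp or Slc25a1. Of these 10 genes, 9 had 13 probe sets among the 12422 on the Affymetrix MG_U74Av2 array that were not controls, and Acaca was not analysed here. The data were 2 arrays of wild type and 2 of PEPCK-TAg. All mice were male B6SJL hybrids aged 58 to 60 days that had been fed 10% protein and 70% carbohydrate for 4 weeks from weaning, and they differed in the transgene. Nothing in the labels ties each array to an animal of its own, so the p-values cover the spread among these 4 hybridizations, and that spread may be technical only. The Pck1 promoter is known to be active in hepatocytes, kidney and adipose tissue, and RNA of the transgene itself was not analysed here.

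Liver turns surplus carbohydrate into fat. Citrate leaves mitochondria through the carrier encoded by Slc25a1 and is split to acetyl-CoA by ATP citrate lyase (Acly). Acetyl-CoA carboxylase (Acaca) and fatty acid synthase (Fasn) build palmitate with NADPH that comes in part from malic enzyme (Me1). The elongases Elovl3, Elovl5 and Elovl6 lengthen fatty acids, stearoyl-CoA desaturase (Scd1) adds a double bond, and Thrsp encodes a small nuclear and cytosolic protein that follows lipogenesis. In liver many of these genes, though not all to the same degree, are known to be driven by SREBP-1c, ChREBP and LXR after carbohydrate feeding. These are transcription factors, and NF-Y and Sp1 are common partners of SREBP at promoters.

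Sequence before a listed start was at hand for 8 of the 10 genes, all but Elovl3 and Scd1, from RefSeq (build GRCm38.p6). A listed start can lie inside a gene, and whether liver uses these starts was not tested, for Acaca and Me1 among them. The 250 bases before the listed start are shown for 4 of them, Fasn as the central enzyme, Elovl5 and Slc25a1 because both hold an E-box and their RNA fell, and Thrsp because its window holds a pair of NF-Y boxes. Sequences run 5′ to 3′ on the gene's strand, and capitals mark E-boxes, NF-Y boxes and GC boxes on either strand. The Fasn window lies inside the span that RefSeq lists for the gene, which starts further upstream.
Fasn, chr11:120824548-120824797, minus strand: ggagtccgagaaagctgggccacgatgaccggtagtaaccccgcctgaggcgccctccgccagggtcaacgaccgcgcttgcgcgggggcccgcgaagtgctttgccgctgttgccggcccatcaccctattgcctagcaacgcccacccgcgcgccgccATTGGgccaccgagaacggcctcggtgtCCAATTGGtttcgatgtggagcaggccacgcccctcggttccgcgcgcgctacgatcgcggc
Elovl5, chr9:77917115-77917364, plus strand: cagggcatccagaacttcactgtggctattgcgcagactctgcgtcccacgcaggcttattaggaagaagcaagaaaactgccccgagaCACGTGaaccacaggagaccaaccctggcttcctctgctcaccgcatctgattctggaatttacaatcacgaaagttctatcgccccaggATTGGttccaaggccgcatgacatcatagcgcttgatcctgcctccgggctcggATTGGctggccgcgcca
Slc25a1, chr16:17928220-17928469, minus strand: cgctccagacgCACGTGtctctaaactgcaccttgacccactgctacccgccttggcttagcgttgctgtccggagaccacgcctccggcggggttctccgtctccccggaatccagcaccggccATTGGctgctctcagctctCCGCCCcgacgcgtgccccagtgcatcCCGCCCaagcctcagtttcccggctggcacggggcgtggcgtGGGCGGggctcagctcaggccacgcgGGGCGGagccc
Thrsp, chr7:97417551-97417800, minus strand: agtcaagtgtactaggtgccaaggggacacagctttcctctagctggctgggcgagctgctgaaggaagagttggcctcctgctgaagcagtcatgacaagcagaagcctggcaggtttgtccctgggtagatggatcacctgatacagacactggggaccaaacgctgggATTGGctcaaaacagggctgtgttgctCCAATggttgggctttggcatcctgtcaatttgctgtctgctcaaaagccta
The NF-Y box CCAAT, searched on both strands, stood in the windows of 5 of the 8 genes (Fasn, Elovl5, Me1, Thrsp and Slc25a1, with 2 windows listed for Me1) and in 33.8% of all 32851 windows of the table. Fasn held 3 such boxes, of which the pair at bases 62 to 58 and 59 to 55 before the start overlap on opposite strands. The E-box CACGTG stood in the windows of Elovl5 (bases 161 to 156 before the start) and Slc25a1 (bases 239 to 234), and in 6.02% of all windows. The GC box GGGCGG stood in the windows of Acly, Me1 and Slc25a1, and in 32.7% of all windows. Of the 2 Me1 windows, that at chr9:86687278-86687527 held the NF-Y box and that at chr9:86695915-86696164 the GC boxes. On the minus strand the former lies downstream of the latter. Member counts are of genes, over 9 windows, while the shares are of windows. TCACNCCAC, one form of the sterol response element, stood in no member window and in 1.05% of all windows. A pair of E-boxes spaced by 5 bases, one form of the carbohydrate response element, stood in 0% of all windows, so it could not set the members apart. A pair of AGGTCA repeats spaced by 4 bases, one form of the LXR element, stood in 0.0152% of all windows and in no member window. Other forms of these 3 elements were not searched, so their absence is not shown. These matches describe the letters of the windows and not binding.

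The deposited values are MAS5 signals, whose trimmed mean was 250.2 on each array. Values were analysed as log2(signal + 13), and PEPCK-TAg was compared with wild type by limma over the 7453 probe sets whose mean reached the 40th percentile, with Benjamini-Hochberg adjustment and a threshold of 0.05. Over these, 229 probe sets were lower (3.07%) and 477 higher (6.40%), and with arrays centred on their medians 409 were lower and 403 higher. The median log2 change of all probe sets was 0.01 as scaled and -0.14 with that centring. The ratio of 3' to 5' signal of the actin control was 4.06 to 4.87 in wild type, against 4.79 to 5.06 with the transgene, and that of Gapdh was 3.67 to 3.80 and 2.95 to 3.36.

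Signals of the fatty acid genes were lower in PEPCK-TAg liver at each tested probe set, and 5 of the 9 genes passed the test. Of the 13 probe sets 12 passed the filter on low values, and in all 12 both PEPCK-TAg arrays lay below both wild-type arrays, where 26.3% of all tested probe sets showed that pattern and 56.5% had groups apart in either direction. By limma 7 of the 12 were lower at the threshold, against 3.07% of all tested (9.47% in either direction), 0 were higher and 5 did not pass. The unadjusted p was under 0.05 with a fall for 12 of 12, against 11.0% of all tested. Elovl3 entered the test through its wild-type signals alone, both PEPCK-TAg signals being below the filter, so its groups had to differ. These 7 belong to 5 genes, Elovl3, Elovl5, Elovl6, Me1 and Slc25a1, while Fasn, Acly, Scd1 and Thrsp did not pass. The median log2 change of the 12 was -0.95, with a range from -3.33 for Elovl3 to -0.37 for Scd1, beside 0.01 for all tested probe sets. The count was 5 with no filter and 4 without the variance trend. Leaving out 1 array gave a count of 4 (either wild-type replicate 1 or PEPCK-TAg replicate 2 left out), 5 (PEPCK-TAg replicate 1) or 9 (wild-type replicate 2).

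**Figure D1:**
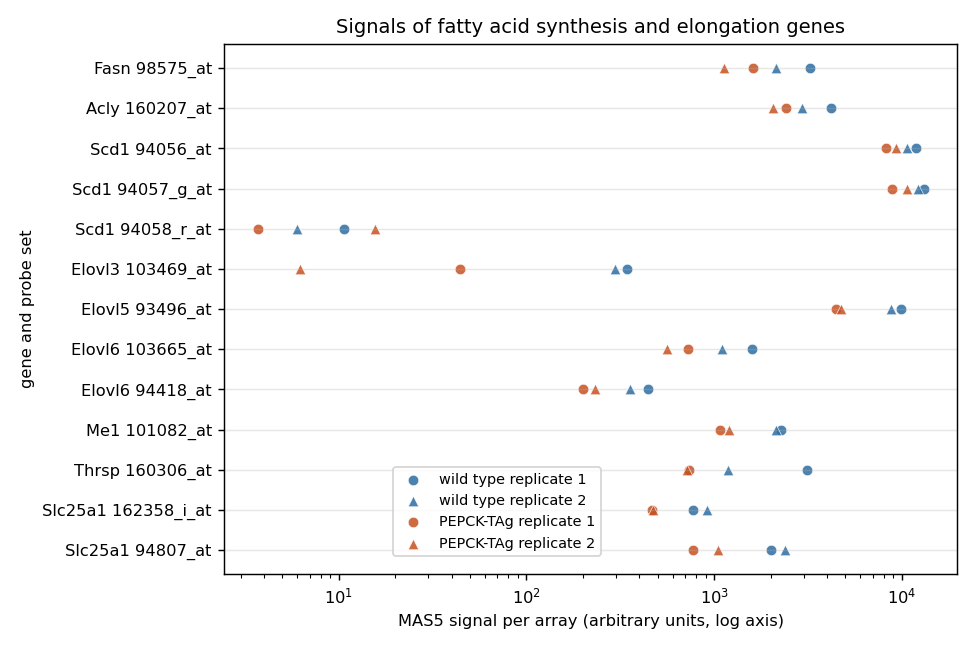
Signal of each member probe set on each of the 4 arrays (log axis), with wild type in blue, PEPCK-TAg in orange, circles for replicate 1 and triangles for replicate 2. In every row except the third Scd1 probe set the orange marks lie to the left of the blue ones, and the widest gap between wild-type arrays is that of Thrsp (3104 and 1191).

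Most hepatocyte markers had lower signals in PEPCK-TAg too, though none passed the test. Of 8 tested markers (Alb, Apoa1, Apob, Ttr, Cps1, Tat, Ahsg and Fgb) 0 passed by limma (4 with a fall at an unadjusted p under 0.05). In 6 of the 8 both PEPCK-TAg arrays lay below both wild-type arrays, against 26.7% of all tested genes. The median log2 change was -0.35, with values from -1.05 for Tat to -0.06 for Apob. The summed signal of the 8 was 77642 and 69669 in wild type, against 60833 and 53391 with the transgene. In bulk liver RNA, fewer hepatocytes and less RNA per hepatocyte cannot be told apart. With each array centred on the mean of these markers, a setting chosen after seeing the data, 3 of the 12 member probe sets were lower at the threshold by limma: Elovl3 (-2.94, adjusted p = 0.000695), Elovl5 (-0.63, adjusted p = 0.0219) and 1 of the 2 Slc25a1 probe sets (-0.89, adjusted p = 0.0382). Over all 7453 probe sets that setting gave 75 lower and 1272 higher, with a median log2 change of 0.40. Without that centring, 10 of the 12 member changes were larger falls than the markers' mean of -0.39 and 3 larger than that of Tat.

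Markers of other cell types differed between the groups as well. Of 11 macrophage markers 5 rose by limma (Mpeg1, Cd14, C1qb, Cd5l and Clec4f) and 0 fell, where 6.83% of all tested genes rose and 3.01% fell. The summed signal of the 11 was 3063 to 5650 in wild type, against 10511 to 13778 with the transgene. All 9 markers of dividing cells on the array had higher signals in both PEPCK-TAg arrays, with sums of 576 to 663 and of 4483 to 5327. The 8 of them that were tested passed, but 5 (Mki67, Top2a, Cdk1, Aurka and Birc5) lay below the filter signal in both wild-type arrays and were tested only because PEPCK-TAg was high. Endothelial markers had a median change of -0.49, with 4 of 9 lower in both PEPCK-TAg arrays, against 26.7% of all tested genes. Past the threshold were 0 (2 with a fall at an unadjusted p under 0.05). Lyve1 was higher in both PEPCK-TAg arrays, with 41.6 and 51.2 against 62.6 and 114. Sums of the endothelial markers were 2844 to 2880 in wild type, against 1756 to 2600. Eng was the largest part of them, with 1837 and 1715 against 1006 and 1470. Adipocyte markers, whose tissue also makes fatty acids, showed 0 of 4 past the threshold in either direction, adjusted or not. The log2 changes were 1.08 (Pparg), 0.18 (Lep), 0.15 (Fabp4) and -0.22 (Lipe). Pparg read 37.0 and 116.8 in wild type, against 112.5 and 217.6 with the transgene. The sum over the 7 on the array was 563 to 634 against 708 to 750. Lep was its largest part, with 424, 269, 454 and 325 over the 4 arrays. Adipoq, which was not tested, had signals of 25.0, 21.3, 34.7 and 20.3. Of 5 stellate cell markers Col3a1 rose and 0 fell, and the single bile duct marker tested, Anxa4, rose. The part of these cells in the lower signals of the fatty acid genes was not tested.

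Of the genes that supply carbon and reducing power, Slc25a1 and Me1 fell and Acly did not pass. Slc25a1, the mitochondrial citrate carrier, had signals of 2013 and 2391 in wild type, against 768 and 1043 in PEPCK-TAg, at its probe set without a suffix for shared or dropped probes. The groups stood apart, with means of 2202 ± 268 and 905 ± 195 (SD, n = 2 each), a ratio of 2.43. The log2 change was -1.28 ± 0.20 (SE; limma, Benjamini-Hochberg adjusted p = 0.0130), and it passed without any 1 of the 4 arrays. The other probe set, whose suffix (_i_at) marks a set in which some probes were dropped, read 769.9 and 914 in wild type, against 464 and 474.5, with a log2 change of -0.82 ± 0.16 (limma adjusted p = 0.0287). It did not pass without wild-type replicate 2 (adjusted p 0.0860), PEPCK-TAg replicate 1 (0.0939) or PEPCK-TAg replicate 2 (0.0836), nor with all arrays and no variance trend (0.0561).

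Me1, the cytosolic malic enzyme that yields NADPH, had the tightest wild-type arrays of the tested members, with 2257 and 2130, while the PEPCK-TAg arrays read 1075 and 1199. Wild type was higher by a ratio of 1.93, and the log2 change of -0.94 ± 0.15 passed (limma adjusted p = 0.0138), but not when wild-type replicate 1 (0.0504) or PEPCK-TAg replicate 1 (0.0537) was left out. Acly, which makes cytosolic acetyl-CoA, read 4172 and 2923 in wild type, against 2415 and 2059 with the transgene. Its arrays did not overlap, but the 2 wild-type arrays differed by a ratio of 1.43, close to the ratio of 1.59 between the groups. The log2 change was -0.64 ± 0.20 (limma adjusted p = 0.102), with -0.90 (0.0438) without wild-type replicate 2 and -0.39 without wild-type replicate 1.

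Fasn, the enzyme that builds palmitate, read 3232 and 2137 in wild type, against 1609 and 1130 with the transgene. Replicate 1 was the higher array in each group, by ratios of 1.51 (wild type) and 1.42 (PEPCK-TAg). The group means of 2685 ± 774 and 1370 ± 339 (SD, n = 2 each) had a ratio of 1.96, and the log2 change of -0.96 ± 0.25 did not pass (limma adjusted p = 0.0662). It did pass with arrays centred on their medians (-1.10, 0.0402), and when wild-type replicate 2 (-1.25, 0.0414) or PEPCK-TAg replicate 1 (-1.21, 0.0340) was left out.

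Thrsp, whose product follows lipogenesis, showed the widest spread in wild type. Its signals were 3104 and 1191 in wild type, against 736 and 720.3 with the transgene, so the PEPCK-TAg arrays were nearly equal while the wild-type arrays differed by a ratio of 2.61. The log2 change was -1.39 ± 0.40 (limma adjusted p = 0.0844), which was -0.70 without wild-type replicate 1 and -2.07 (0.00537) without wild-type replicate 2. The size of the Thrsp difference therefore rests on which wild-type array is used.

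All 3 elongases fell, and the estimate was largest for Elovl3. Elovl3, which lengthens saturated and monounsaturated chains and is known for higher expression in male than in female mouse liver, read 342 and 298 in wild type, against 44.0 and 6.2 with the transgene. Both PEPCK-TAg signals lay below 48.1, the mean signal at which probe sets entered the test, and they differed from each other by a ratio of 7.10. The ratio of group means was 12.7, and the log2 change of -3.33 ± 0.48 (limma adjusted p = 0.0106) passed without any 1 array, from -4.11 without PEPCK-TAg replicate 1 to -2.54 without PEPCK-TAg replicate 2. Since the PEPCK-TAg signals are dim, this value also moved with the offset, to -4.15 with an offset of 1 and -2.34 with an offset of 50.

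Elovl5, which lengthens polyunsaturated chains, read 9913 and 8746 in wild type, against 4478 and 4727 with the transgene. The arrays within a group differed by ratios of 1.13 and 1.06, against a ratio of 2.03 between the group means. The log2 change of -1.02 ± 0.13 (limma adjusted p = 0.00727) passed under each of the 9 other settings fixed for the test and without any 1 array, and was -0.69 with quantile normalization. Elovl6, which takes palmitate to stearate, read 1591 and 1102 in wild type, against 729 and 559 with the transgene, at its brighter probe set, and 445 and 354.5 against 199 and 231 at the dimmer one. Both fell, with log2 changes of -1.04 ± 0.23 and -0.85 ± 0.19 (limma adjusted p = 0.0390 and 0.0393). Neither passed when wild-type replicate 1 (0.119 and 0.127) or PEPCK-TAg replicate 2 (0.112 and 0.0729) was left out, and the dimmer one also failed when PEPCK-TAg replicate 1 was (0.143). With all arrays, neither passed with no filter (0.0753 and 0.0723) or with no variance trend (0.0722 and 0.0653).

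The elongases were set against each other within each array, which compares their changes and not their levels. The log2 value of Elovl3 minus that of Elovl5 was -4.81 and -4.82 in wild type, against -6.30 and -7.95 with the transgene, a difference of -2.31 between the groups. That of Elovl3 minus Elovl6 was -2.18 and -1.84, against -3.70 and -4.90, a difference of -2.29. In both pairs the groups did not overlap, and the exact permutation p was 0.333, the smallest that 2 arrays against 2 can give (two-sided, 0.667 adjusted over 4 pairs). Those differences were -1.34 and -1.35 with an offset of 50, and the first was -1.49 without PEPCK-TAg replicate 2. Elovl5 minus Elovl6 changed by 0.02, from 2.63 and 2.97 to 2.60 and 3.05, within the spread of its arrays (pooled SD 0.29), but by 0.34 with quantile normalization.

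Scd1, the desaturase that makes oleate and palmitoleate, had the smallest changes of the members. Its first probe set (_at) read 11839 and 10674 in wild type, against 8196 and 9283 with the transgene. The second (_g_at) read 13139 and 12143, against 8855 and 10679. Both were among the brightest probe sets of the array, at percentiles 99.8 and 99.9 of mean level. Whether so high a level limits the change they can show was not tested. The groups stood apart by ratios of 1.29 in both, and the log2 changes of -0.37 ± 0.13 and -0.38 ± 0.14 did not pass (limma adjusted p = 0.140 and 0.148). With quantile normalization the changes were -0.05 and -0.01, and with cyclic loess -0.03 and -0.03. The third (_r_at) was dim, with 10.7 and 6.0 against 3.7 and 15.5, and was not tested. Scd1 minus Fasn in log2 was 2.02 and 2.50 in wild type, against 2.45 and 3.23 with the transgene, so the groups overlapped (difference 0.58, pooled SD 0.46, exact permutation p = 0.667).

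**Figure D2:**
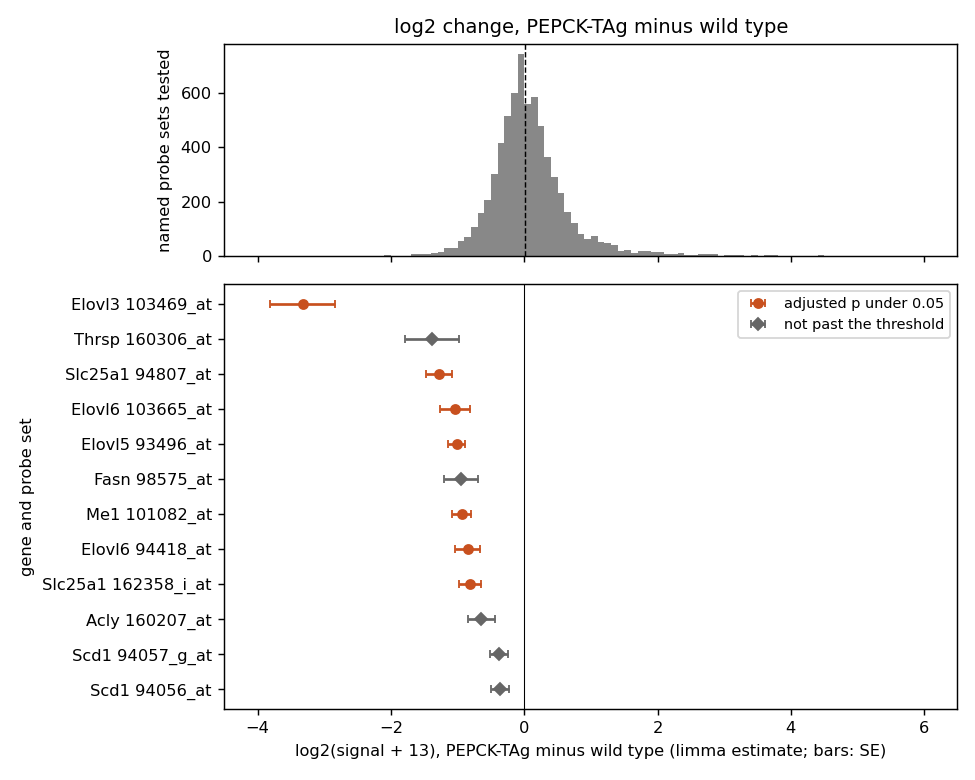
The upper panel counts all named probe sets tested by their log2 change, with the median dashed, and the lower panel gives the 12 tested member probe sets with their SE (limma, 2 arrays per group; circles passed the threshold). All 12 estimates lie below 0, from -3.33 for Elovl3 to -0.37 for Scd1.

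The wild-type arrays were not alike for these genes. Wild-type replicate 1 was above replicate 2 in 10 of the 12 tested member probe sets, the exceptions being both of Slc25a1, where 52.6% of all tested probe sets had that order. The median of the member differences was 0.19 in log2, beside 0.02 for all tested probe sets. After subtraction of each probe set's mean over the arrays, the member medians were 0.58 and 0.26 for wild-type replicates 1 and 2 and -0.48 and -0.43 for PEPCK-TAg replicates 1 and 2. The PEPCK-TAg arrays were closer to each other than the wild-type arrays on that measure. Differences of opposite sign can cancel in such medians, and at Elovl3 the PEPCK-TAg arrays differed by a ratio of 7.10. The wild-type arrays also stood apart at other genes, picked here after their values were seen. Wild-type replicate 2 was above wild-type replicate 1 in 10 of 11 macrophage markers. The sum of the 11 had that order in both groups, with 3063 and 5650 in wild-type replicates 1 and 2 and 10511 and 13778 in PEPCK-TAg. Cyp4a14 and Acot1, both known targets of PPAR alpha, read 39.2 and 141 in wild-type replicate 1, against 2543 and 614 in wild-type replicate 2, and Tat read 7073 and 3246. In PEPCK-TAg replicates 1 and 2, Cyp4a14 read 254 and 444.5, Acot1 150 and 144, and Tat 2876 and 1853. The order of the replicates was thus the same in both groups at Cyp4a14 and Tat, and not at Acot1. The part of these differences in those of the fatty acid genes was not tested.

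**Figure D3:**
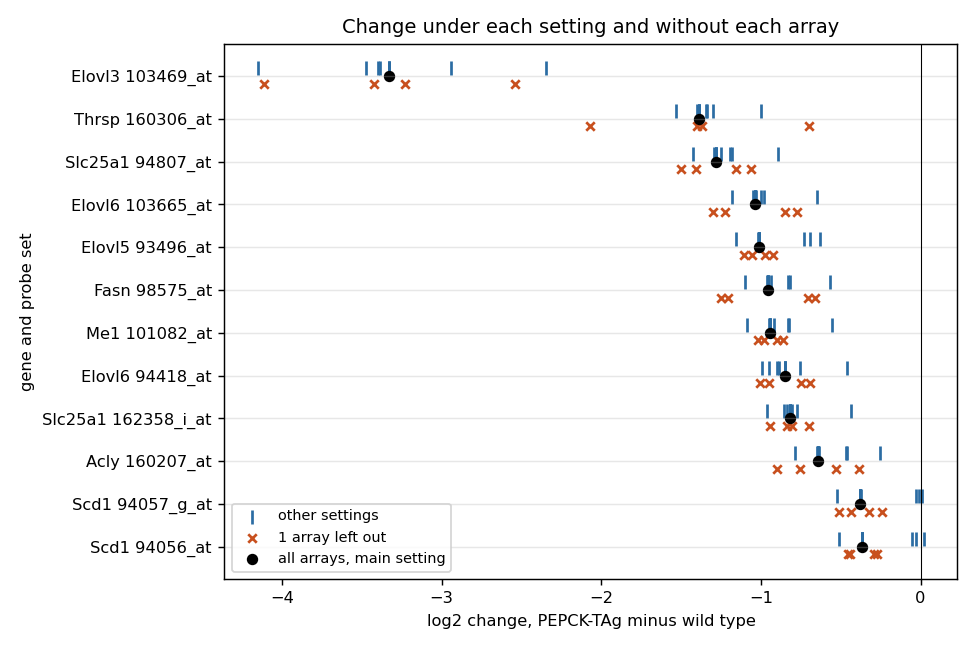
Log2 change of each tested member probe set with all arrays (black), under the other settings (blue bars) and with 1 array left out (orange crosses). All values lie below 0 except those of Scd1 centred on the hepatocyte markers (0.02 and 0.01), and the widest spread by left-out array among the genes below Elovl3 is that of Thrsp, from -2.07 to -0.70.

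Among genes around the pathway few passed the test. In 5 lists of enzymes, suppliers, regulators, triglyceride genes and carbohydrate genes, 61 of 121 genes were tested at 1 probe set each (that of highest mean), 6 fell and 2 rose, where 3.01% of all 5650 tested genes fell and 6.83% rose. Their median log2 change was -0.29, and 35 of the 61 had both PEPCK-TAg arrays below both wild-type arrays, against 26.7% of all tested genes. Of the 6 falls 4 (Fads1, Idh1, Lpin1 and Cideb) lost their call whichever array was left out, with limma adjusted p up to 0.200. Fads1, Idh1 and Cideb also missed the threshold with quantile normalization, with cyclic loess, with no filter and without the variance trend. The number of falls was 14 with arrays centred on their medians, 1 with no filter (Pcx) and 0 with arrays centred on the hepatocyte markers.

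Among 14 genes listed as other enzymes of fatty acid synthesis, elongation and desaturation, 1 fell and 1 rose, with a median of -0.39. The 14 also hold genes of malonyl-CoA breakdown (Mlycd), fatty acid activation (Acsl4 and Acsl5) and acyl-CoA hydrolysis (Acot1). Fads1, the delta-5 desaturase, fell from 2047 and 2379 to 1293 and 1418 (log2 change -0.70 ± 0.15, limma adjusted p = 0.0383). Scd2, a desaturase isoform of low expression in adult liver, rose. Its signals went from 154 and 132 to 311 and 423, a log2 change of 1.28 ± 0.21 (limma adjusted p = 0.0157, and 0.0550 without PEPCK-TAg replicate 2), in a probe set whose suffix marks sequence shared within a gene family. Its other probe set rose by 1.89 (adjusted p = 0.00716). Elovl2, an elongase of long polyunsaturated chains, gave 1933 and 2915 against 1386 and 1249 and did not pass (-0.85, adjusted p = 0.0596).

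Of 13 genes that supply acetyl-CoA and NADPH 2 fell and 1 rose, with a median of -0.16. Pyruvate carboxylase (Pcx), which feeds citrate formation, fell from 844 and 1048 to 325 and 445 (log2 change -1.28, limma adjusted p = 0.0162), and by -1.12 without wild-type replicate 2. Its symbol stood on 6 probe sets, controls counted, and another of them changed by -0.35 (limma adjusted p = 0.562). The NADPH-forming isocitrate dehydrogenases went in opposite directions. The cytosolic Idh1 fell from 2898 and 2763 to 1913 and 1801 (-0.60, adjusted p = 0.0414), and the mitochondrial Idh2 rose from 489 and 423 to 871 and 949 (0.98, adjusted p = 0.0167). Idh2 did not pass once wild-type replicate 2 (0.0507) or PEPCK-TAg replicate 2 (0.0604) was left out.

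Of 11 triglyceride genes 2 fell and 0 rose, with a median of -0.51. Lpin1, a phosphatidate phosphatase, fell from 382 and 390.4 to 221 and 212 (log2 change -0.80, limma adjusted p = 0.0286), and Cideb, a lipid droplet protein of hepatocytes, 2760 and 2496 against 1638 and 1664 (-0.66, adjusted p = 0.0345). Gpam, which starts glycerolipid synthesis, gave 3418 and 2159 against 1309 and 1510 and did not pass (-0.94, adjusted p = 0.0549).

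Of 8 carbohydrate genes 1 fell and 0 rose, with a median of -0.31. Pklr, the liver pyruvate kinase that glucose induces through ChREBP, fell from 973 and 677 to 326 and 387 (log2 change -1.16, limma adjusted p = 0.0234). It did not pass once wild-type replicate 1 (0.0662) or PEPCK-TAg replicate 1 (0.0603) was left out, and the second Pklr probe set changed by -0.78 (adjusted p = 0.0697). Pck1, whose promoter the transgene uses, read 2372 and 2308, against 1605 and 566 (-1.28, adjusted p = 0.121).

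The regulators as a list showed no calls: 0 of 15 tested passed the limma threshold, with a median of -0.22. Of the 30 listed, 18 had a probe set with that single symbol. Mlxipl, which encodes ChREBP, and Nr1h2, which encodes LXR beta, had none, so neither was measured here. At an unadjusted p under 0.05, 4 were lower and 1 higher. The list had 2 lower calls with arrays centred on their medians, 1 with quantile normalization, 1 with the filter at the 60th percentile, and 1 higher call with arrays centred on the hepatocyte markers. Srebf1, which encodes SREBP-1, read 1562 and 839 in wild type, against 1599 and 1281 with the transgene, so its groups overlapped (log2 change 0.32 ± 0.29, adjusted p = 0.555). Nr1h3, which encodes LXR alpha, gave 641 and 761.5 against 582 and 553 (-0.29, adjusted p = 0.318), and Mlx, the partner of ChREBP, 247.5 and 196 against 294 and 282 (0.37, adjusted p = 0.261). The members of smallest p were Usf1, an E-box binding factor (-0.81, adjusted p = 0.0530, with 0.08 in its other probe set), Prkab1, a subunit of AMP-activated kinase (0.68, 0.0653), and Ppara, the nuclear receptor of fatty acid oxidation (-0.63, 0.0713).

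**Figure D4:**
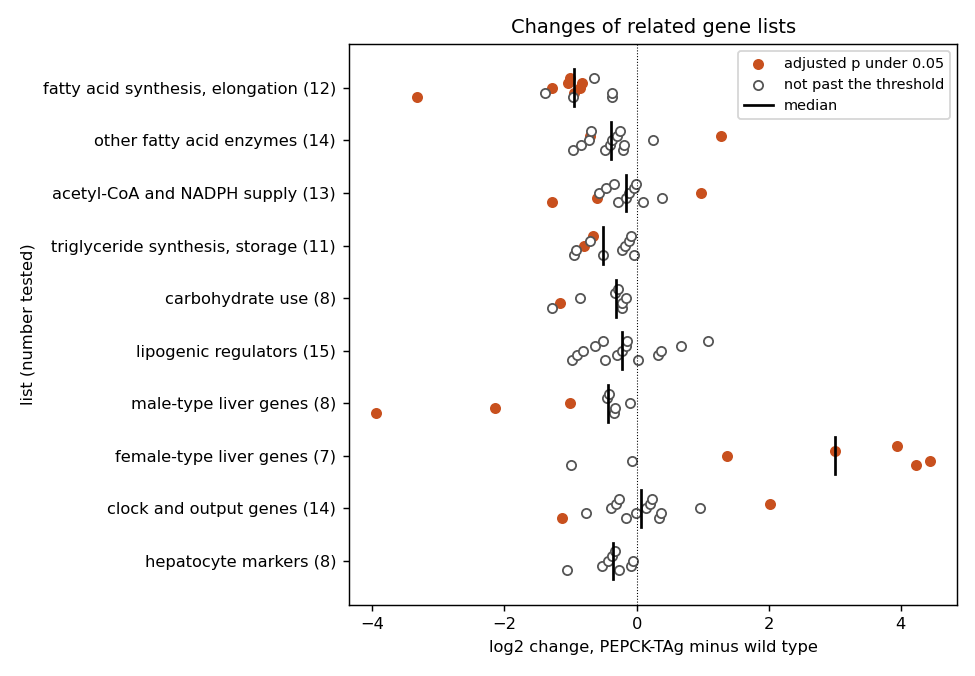
Log2 change of each tested probe set of the fatty acid members (12) and of each tested gene of 9 other lists, with filled points past the limma threshold and a bar at the median. The members' median of -0.95 lies below those of the 5 pathway lists (-0.51 to -0.16) and the hepatocyte markers (-0.35).

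Genes of male-type and female-type liver expression were set beside Elovl3. Of all tested genes, 3.01% fell and 6.83% rose by limma, and of 8 tested male-type genes 3 fell and 0 rose. Hsd3b5, a steroid dehydrogenase, went from 5306 and 4604 to 531 and 179. Cyp7b1, an oxysterol hydroxylase, went from 3303 and 1543 to 637 and 394, and Cyp4a12b, a fatty acid hydroxylase, from 2848 and 2596 to 1276 and 1409. Of 7 tested female-type genes 5 rose and 0 fell, but 3 of the 5 lay below the filter signal in both wild-type arrays and were tested only because PEPCK-TAg was high. These were Hao2 (16.8 and 13.8 against 404.5 and 886), Sult2a2 (19.2 and 4.3 against 176 and 676) and Cyp2b13 (18.4 and 13.4 against 137 and 346.5). The others were Cyp2b9 (10.5 and 148 against 914 and 1420.3) and Cyp2b10 (63.1 and 75.8 against 165 and 242). Cyp17a1 of the same list was lower in both PEPCK-TAg arrays, with 144 and 136 against 77.0 and 53.3, and did not pass (-0.99, limma adjusted p = 0.0508). The female-type list had 3 higher calls with no filter, 1 with the filter at the 60th percentile and 2 without PEPCK-TAg replicate 2, and it had 1 lower call with quantile normalization, median centring, cyclic loess or an offset of 50. Among 14 clock and clock output genes, which matter here since Elovl3 is rhythmic in liver, 1 fell and 1 rose. With 1 call in each direction among 14, the list is not set apart from the shares of all tested genes (3.01% and 6.83%). Nr1d1, a clock repressor, fell from 293.5 and 368 to 113.5 and 178 (-1.13, limma adjusted p = 0.0371). With 1 array left out it kept its call only without PEPCK-TAg replicate 2, and it also missed the threshold with no filter (0.0801) and no variance trend (0.0618). Wee1, a cell cycle kinase under clock control, went from 22.8 and 41.7, both below the filter signal, to 130 and 212 (2.02, adjusted p = 0.0162, and 0.0564 without PEPCK-TAg replicate 2). The hour of tissue collection is not given in the sources used here, and the part of these genes in the fall of Elovl3 was not tested.

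Genes were also ranked by likeness to Fasn and Elovl3, as the root mean square difference of centred log2 values over the 4 arrays, as a description. Closest to Fasn were Slc10a1 (0.06), Mycn (0.07) and Cyp4v3 (0.09), and Slc10a1, the bile acid uptake carrier, went from 7427 and 5379 to 3702 and 2751. By limma Slc10a1 passed (adjusted p = 0.0368), while Mycn (0.178) and Cyp4v3 (0.0796) did not. Mycn was dim, with 113 and 69.0 in wild type, against 56.5 and 34.8. Closest to Elovl3 were Hsd3b5 (0.31), Igfbp2 (0.40) and Cyp7b1 (0.59).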

How the data were processed

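Per the submitters' processing notes, the deposited intensity values are MAS5 signals, 1 per probe set and array on a linear scale. Which software version and scaling target were used is not given in the sources at hand, and detection calls were not used here. The arrays shared chip lot, station and scan day, and each had its own fluidics module, so no block could be formed from them.

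Names were taken from GEO's annotation of the array: of 12422 probe sets that were not controls, 10833 had 1 symbol, 396 several (given no name) and 1193 none, and 10817 matched the RefSeq table of GRCm38.p6. The offset of 13 in log2(signal + 13) equals 5% of the trimmed mean, and it shrinks the log2 changes of dim probe sets. Tests used limma 3.58.1 in R 4.3.3 (lmFit, eBayes with trend, 2 residual and 4.61 prior degrees of freedom), two-sided, fitted over 7453 probe sets and adjusted over all of them, and the procedure was tested on simulated data. All member probe sets were named, and of each other list members past the threshold and some of smallest p (up to 4), except that markers of dividing cells past the threshold were named only where below the filter in wild type. Srebf1, Nr1h3, Mlx, Apob, Adipoq, Cyp4a14, Acot1 and the untested bile duct and stellate cell markers were added after their values were seen. Some further genes are named without values, to say what a list holds or lacks. Members and lists were chosen with earlier results of these data known. With 2 arrays per group, their number sets the precision.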

Additional observations from a re-analysis of the deposited data

How the results depend on the processing

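The direction of the 12 member changes was the same under the 9 fixed settings and without each array. Centred on the hepatocyte markers, a setting chosen after seeing the data, the Scd1 changes were 0.0224 and 0.0111. Counts of lower member probe sets were 4 without the variance trend, 3 centred on the hepatocyte markers, and 4 to 9 with 1 array left out. Over all probe sets, lower counts were 409 with arrays centred on their medians, 105 with no filter, 117 without the trend, 75 centred on the hepatocyte markers and 110 to 143 with 1 array left out, and higher counts were 1272 centred on the hepatocyte markers and 288 to 420 with 1 array left out. Over the 5 pathway lists, lower counts were 14 with median centring, 3 with cyclic loess, 1 with no filter, 3 without the trend, 0 centred on the hepatocyte markers and 3 to 5 with 1 array left out, and higher counts 0 to 2 with 1 array left out. The change of Elovl5 minus Elovl6 was 0.34 with quantile normalization, that of Elovl3 minus Elovl6 -3.10 with an offset of 1 and -1.35 with an offset of 50, and that of Elovl3 minus Elovl5 -1.34 with an offset of 50. With 1 array left out, the lone array of a group is assumed to vary like the other group. Elovl3 fell below the filter at the 60th percentile and has no value there.

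Arrays of the same replicate number share only a number in the labels. The replicate 1 minus 2 differences of both groups correlated with r = 0.181 across probe sets. With the replicate block, lower counts were 444 over all probe sets, 10 among members and 16 in the pathway lists, with 4 higher in these, and Fasn (adjusted p 0.00407), Acly (0.0185) and Thrsp (0.0172) passed. Dim signals limit Elovl3 in PEPCK-TAg.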
